A study of Saccharomyces cerevisiae with 104 samples.

Results

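H3S31D is a budding yeast (Saccharomyces cerevisiae) strain in which serine 31 of histone H3 is replaced by aspartate. RNA of this strain was compared with that of 2 other histone H3 point mutants, H3K18A, with alanine in place of lysine 18, and H3K37R, with arginine in place of lysine 37. The comparison used 9 of the 90 RNA-seq libraries of the series, 3 of each strain, chosen by the start of the column names in the count table. The series covers 30 genotypes, WT among them, and also holds 14 ATAC-seq samples, which were not analysed here. The labels give the strain background of all groups as MSY196, based on S288C. Growth conditions for the RNA samples are not given in the sources used here. The labels do not say whether the 3 libraries of a strain came from separate cultures or clones. The p-values thus measure the spread between libraries of a strain, estimated over all 90 libraries. That spread may be technical. The counts hold no allele information, so the genotypes could not be checked.

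Histone H3 forms the nucleosome core with histones H4, H2A and H2B, and its N-terminal tail projects from the particle. Serines of the tail can be phosphorylated and lysines can be acetylated or methylated, and proteins that open, close or transcribe chromatin read these marks. Aspartate carries a negative charge and is often used to imitate a phosphorylated serine, alanine removes the charge of lysine, and arginine keeps a positive charge that cannot be acetylated in the same way. H3K18A and H3K37R served as the reference because they had neighbouring sample numbers and were known to show few changes.

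RNA had been extracted with hot acidic phenol and sequenced with QuantSeq 3′ FWD, which reads near the 3′ end of polyadenylated RNA. Levels are given as CPM, counts per 1e+06 counts in genes after TMM scaling, edgeR's correction for library composition. They are shares of a library, and the total RNA per cell was not measured. The 9 libraries held 1182127 to 1935822 counts in genes. H3S31D S139, S140 and S141 held 1182127, 1467751 and 1215459 counts, each below all 6 reference libraries. Reads placed at more than one site, which are left out of the gene counts, were 7.71, 6.43 and 5.98 times the gene counts in H3S31D and 3.12 to 5.09 times in the 6 reference libraries. The TMM scaling factors were 1.128 to 1.142 in H3S31D and 0.8888 to 1.035 in the reference. For the ratio of multiply placed reads, the totals and the TMM factors, the groups did not overlap. Each gave p = 0.0238 in an exact two-sided permutation test, the smallest that 3 against 6 allows, and 0.0397 adjusted over 5 library measures. Counts of calls with the ratio of multiply placed reads as a covariate are given beside most of the gene groups below.

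Of 5822 genes tested, 844 (14.5%) were called between H3S31D and the mean of H3K18A and H3K37R, which means an adjusted p below 0.05 in the quasi-likelihood test of edgeR. Of these, 408 genes (7.01%) were higher in H3S31D and 436 (7.49%) were lower. Counts of called list members given below are to be read against these shares of all genes. The median size of a called change was 0.756 on the log2 scale among the higher and 0.915 among the lower genes. At least 2-fold changes numbered 82 upward and 186 downward, and at least 4-fold changes 8 and 20. All 3 H3S31D libraries lay above all 6 reference libraries in 891 genes (15.3%) and below them in 874 (15%). Among the called genes this held for 370 of the 408 higher and 398 of the 436 lower ones. Each of the 844 genes had the same sign against H3K18A alone and against H3K37R alone.

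The number of calls fell when single libraries were left out, which also leaves fewer libraries for the test. The 14.5% of genes called became 3.06% without H3S31D S139, 2.28% without H3S31D S140, 7.11% without H3S31D S141 and 8.28% without H3K18A S128, and 9.74% to 14.3% without each of the other 5 libraries. With the ratio of multiply placed reads as a covariate, 79 genes were called, 71 of them among the 844. All 844 kept their sign there, and their median size went from 0.825 to 0.521 on the log2 scale. The ratio did not overlap between H3S31D and the reference, so ratio and genotype cannot be told apart in these 9 libraries. The 80 genes called without each of the 9 libraries in turn (48 higher, 32 lower) are described as stable below, and 40 of them were also called with the covariate.

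The choice of reference set the count as well. The mean of all 7 other mutants with neighbouring sample numbers comprises H3K18A, H3K37R, H3K37Q, H3R40K, H3T3A, H3T3D and H4R55A. Against that mean 4 of 5822 genes (0.0687%) were called, all higher in H3S31D, with 950 genes at an unadjusted p under 0.05. Against WT, 307 genes (5.27%) were called, 2.13% of genes higher and 3.14% lower. Of the 408 higher genes 403 had the same sign over WT and 19.1% were called there. Of the 436 lower genes 432 had the same sign and 23.4% were called. The comparison with WT shares the H3S31D libraries with the main one, so its values are given only beside the others. Of the 4 WT libraries, S133 has a sample number near those of H3S31D, and S46, S81 and S82 do not.

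Enzymes that make and use glycogen were among the largest increases. The 14 largest changes in each direction were picked from called genes with all 3 H3S31D libraries on one side of all 6 reference libraries. The lack of overlap in these genes was thus required and is no further evidence. GSY2 (YLR258W, chromosome XII, 660716 to 662833), the main glycogen synthase, stood at 110.5, 148 and 82.5 CPM in H3S31D. It stood at 26.2, 26.8 and 31.8 CPM in H3K18A and 21.1, 25.9 and 32.97 CPM in H3K37R. The lowest H3S31D library was above every reference library, and the log2 fold change was 2.05 ± 0.35 (SE; adjusted p = 0.0002973). GLC3 (YEL011W, chromosome V, 133120 to 135234), the branching enzyme that shapes the glycogen molecule, showed 34.1, 57.1 and 43.1 CPM in H3S31D, against 8.05, 11.6 and 16.6 CPM in H3K18A and 9.46, 8.16 and 11.7 CPM in H3K37R. Its 3 H3S31D libraries again lay above all 6 others, with a log2 fold change of 2.04 ± 0.44 (adjusted p = 0.00305). GPH1, the phosphorylase that breaks glycogen down, was at 38.5 ± 12.9 CPM (SD, n = 3) in H3S31D and 10.7 ± 4.12 CPM (SD, n = 6) in the reference (log2 fold change 1.90 ± 0.61, adjusted p = 0.0274). These were the 3 of 17 trehalose and glycogen genes that were called, all higher, and 14 of the 17 had a positive log2 fold change (median 0.499, against 0.015 over all genes). GSY2 and GLC3 were stable, and all 3 genes were called with the covariate. Over WT the list had a median of -0.010 with no member called, and the WT libraries ranged widely, with GPH1 at 18.3, 72.7, 12.7 and 44.2 CPM in S133, S46, S81 and S82. The mutants H3K37Q, H3T3A and H3T3D had higher medians of this list than H3S31D, as given below.

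Genes of the general stress response moved the same way. GAD1 (YMR250W, chromosome XIII, 770801 to 772558), a glutamate decarboxylase that protects against oxidative stress, had the largest increase among the genes eligible to be named. Its level was 47.5, 63.1 and 45.3 CPM in H3S31D, 10.7, 12.2 and 16.6 CPM in H3K18A and 8.34, 12.9 and 9.57 CPM in H3K37R. The H3S31D mean was 4.43 times the reference mean (log2 fold change 2.16 ± 0.40, adjusted p = 0.0008269). SOL4, a 6-phosphogluconolactonase induced by stress, followed with a log2 fold change of 2.08 ± 0.54, from 4.06 ± 1.41 CPM in the reference to 17.1 ± 5.93 CPM in H3S31D. HSP12, a small membrane-protecting heat shock protein, was higher by 1.92 ± 0.67 and HOR7, a protein induced by high osmolarity, by 1.53 ± 0.47. The HSP12 call was lost in 8 of the 9 fits without 1 library, and that of HOR7 in 4. Of 37 genes induced by environmental stress, 9 were higher and 1 lower (median 0.614). The lower one, HUG1, an inhibitor of ribonucleotide reductase, is named after its values were seen and stood at only 1.38 ± 0.740 CPM in H3S31D. The count of higher stress genes was 2 without H3S31D S140, 4 without H3S31D S139 and 5 with the covariate, and GAD1 was stable. Over WT the median of the list was -0.038, with 1 member called, which was lower.

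A few cytosolic chaperones were higher. HSP82, which encodes the inducible form of Hsp90, was at 758, 891 and 766 CPM in H3S31D, 280.4, 245 and 283 CPM in H3K18A and 157, 337 and 365 CPM in H3K37R. The groups were well apart, with a log2 fold change of 1.53 ± 0.36 and an adjusted p of 0.00529, and the call was stable. SSA4, an inducible Hsp70, and SSE2, its nucleotide exchange factor, were higher by 0.91 ± 0.25 and 0.98 ± 0.27. SBA1, an Hsp90 co-chaperone named after its values were seen, was higher by 0.82 ± 0.17 and stable. SSB1, an Hsp70 that binds nascent chains at the ribosome, was lower by the same kind of margin, with a log2 fold change of -0.91 ± 0.28. In all, 4 of 23 cytosolic chaperones were higher and 1 was lower (median 0.183). The count of higher ones was 1 without H3S31D S139, 2 without H3S31D S140, 0 with the covariate and 0 over WT.

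**Figure D1:**
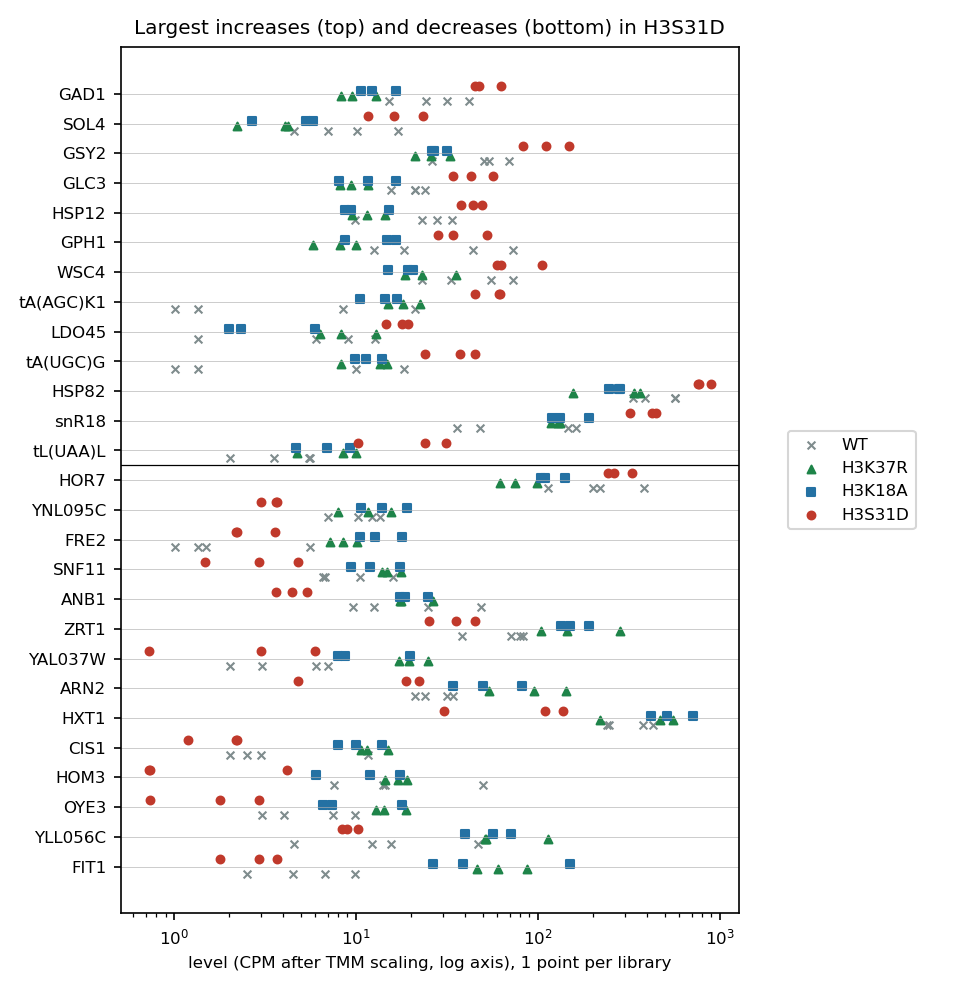
Level in CPM (log axis) of the 14 largest increases and 13 of the 14 largest decreases eligible to be named, with 1 point per library for H3S31D, H3K18A, H3K37R and WT. For each gene the 3 H3S31D points lie on one side of the 6 reference points, which the rule for naming required; the WT points often lie between them, and for FIT1 and FRE2 they lie near the H3S31D points.

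The remaining large changes fell outside these groups or had no known role. WSC4, a relative of the cell wall stress sensors, was at 63.03, 105.8 and 59.9 CPM in H3S31D and 15.1 to 35.6 CPM in the reference (log2 fold change 1.81 ± 0.53, adjusted p = 0.0184). LDO45, a protein of lipid droplets whose gene overlaps LDO16, was at 17.3 ± 2.42 CPM against 6.32 ± 4.06 CPM (1.62 ± 0.47). On the lower side, OYE3, an NADPH oxidoreductase, was at 1.82 ± 1.09 CPM in H3S31D and 13.0 ± 5.18 CPM in the reference (-2.77 ± 0.86), and CIS1, a protein linked to autophagy, at 1.87 ± 0.581 CPM against 11.5 ± 2.60 CPM (-2.60 ± 0.94). The uncharacterised genes YLL056C, YAL037W and YNL095C were lower by -2.79 ± 0.86, -2.29 ± 0.59 and -1.90 ± 0.44. Of these 7 genes only YNL095C was stable, and the CIS1 call was lost without any 1 of the 9 libraries. GPP1, a glycerol phosphatase, is named after its values were seen as another stable decrease, at 159 ± 28.4 CPM (SD, n = 3) in H3S31D and 434 to 637 CPM in the reference (-1.77 ± 0.44, adjusted p = 0.00755).

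A pair of glucose transporters and several enzymes of glycolysis were lower in H3S31D. HXT3 (YDR345C, chromosome IV, 1162957 to 1164660), a low-affinity glucose transporter, had the smallest p of all genes. Its level was 254, 234 and 358 CPM in H3S31D, against 906, 1052 and 866 CPM in H3K18A and 673, 1023 and 847 CPM in H3K37R. The highest H3S31D library lay far below the lowest reference library (log2 fold change -1.66 ± 0.26, adjusted p = 8.619e-05), and the gene was also lower than in WT, by -1.30 (adjusted p = 0.00654). HXT1, another low-affinity transporter, was at 92.5 ± 55.5 CPM (SD, n = 3) in H3S31D and 220.3 to 718 CPM across the reference. Its call (log2 fold change -2.37 ± 0.85, adjusted p = 0.0496) was lost without any 1 of the 9 libraries, whereas HXT3 was stable. These were the 2 of 11 hexose transporters called, and 5 of the 11 had a positive log2 fold change. Their sequences are similar, and reads that match more than one of them were not counted.

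Of 16 glycolytic genes, 8 were lower and none higher, with a median log2 fold change of -0.991. The median over the list, relative to the mean of the 6 reference libraries, was -1.06, -1.06 and -0.80 in H3S31D S139, S140 and S141. It was 0.05, 0.32 and 0.16 in the H3K18A libraries and -0.17, -0.03 and -0.37 in those of H3K37R, so that no H3S31D library overlapped the reference. PGI1, which converts glucose 6-phosphate to fructose 6-phosphate, went from 666 ± 87.7 to 293 ± 27.7 CPM (log2 fold change -1.18 ± 0.32, adjusted p = 0.0127). PFK2, a subunit of phosphofructokinase, FBA1, the aldolase, and ENO2, an enolase, were lower by -1.16 ± 0.33, -0.95 ± 0.23 and -1.02 ± 0.29. The count of lower glycolytic genes was 1 without H3S31D S139, 0 without H3S31D S140 and 0 with the covariate, where the median was -0.505. Over WT the median was -0.878, with 5 of the 16 called, all lower.

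Of 15 genes of ethanol and acetate metabolism 4 were lower and none higher (median -0.442). ALD5, a mitochondrial aldehyde dehydrogenase, was at 29.7, 36.7 and 47.5 CPM in H3S31D and 63.4 to 109.3 CPM in the reference (log2 fold change -1.25 ± 0.26, adjusted p = 0.00239), and its call was stable. ADH1, the main alcohol dehydrogenase of fermentation, was lower by -0.999 ± 0.34, and ADH5, a minor isoform, by -1.16 ± 0.40; each call was lost in 7 of the 9 fits without 1 library. The count of 4 was 1 with the covariate and 1 without any 1 of H3K18A S128, H3K37R S121 or the H3S31D libraries. PDC1, the main pyruvate decarboxylase, was lower by -0.46 ± 0.15 against the reference, while its log2 fold change over WT was 0.02 (adjusted p = 0.964). In the pentose phosphate pathway, which makes NADPH and ribose, 5 of 10 genes were lower and 1, SOL4, was higher. TKL1, a transketolase, was at 219.5, 264 and 205 CPM in H3S31D and 409 to 603 CPM in the reference (log2 fold change -1.11 ± 0.27, adjusted p = 0.00765). SOL3, which encodes another 6-phosphogluconolactonase, was lower by -1.02 ± 0.23 while its paralog SOL4 was higher; TKL1 and SOL3 were stable. The count of 5 lower genes was 2 without H3S31D S139, 2 without H3S31D S140, 3 without H3S31D S141, 0 with the covariate and 2 over WT.

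Some genes of respiration were higher. MDH1, the mitochondrial malate dehydrogenase, was at 256, 569 and 269 CPM in H3S31D and 121.1 to 166 CPM in the reference (log2 fold change 1.39 ± 0.30, adjusted p = 0.00270). CIT1, the citrate synthase, was at 67.04 ± 32.02 CPM (SD, n = 3) against 19.2 to 45.2 CPM (1.17 ± 0.33). QCR6, a subunit of the cytochrome bc1 complex, was at 444, 854 and 432 CPM against 209 to 258 CPM (1.28 ± 0.29). In these 3 genes H3S31D S140 stood far above the other H3S31D libraries, and each call was lost without it. Of 16 citric acid cycle genes 4 (25%) were higher and none lower, against 7.01% of all genes higher. Of 39 nuclear genes of the respiratory chain and ATP synthase 5 (12.8%) were higher and none lower. Without H3S31D S140 both counts were 0. COX5B, a subunit of cytochrome c oxidase made when oxygen is low, was at 100.1, 116.6 and 103.7 CPM against 18.9 to 54.3 CPM (1.49 ± 0.39). With the covariate, 1 citric acid cycle gene and 3 respiratory genes were called higher, and over WT the medians of the lists were -0.272 and -0.137.

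Ribosomal protein genes were the largest group on the lower side. Of 56 genes of the small subunit 20 were lower and none higher, and of 82 genes of the large subunit 34 were lower and none higher, with median log2 fold changes of -0.632 and -0.589. The median of the small subunit list was -0.71, -0.57 and -0.59 in the 3 H3S31D libraries, -0.01, 0.13 and 0.05 in H3K18A and 0.03, 0.01 and -0.23 in H3K37R. RPL12B was at 1637, 1784 and 1857 CPM in H3S31D and 2750 to 3448 CPM in the reference (log2 fold change -0.80 ± 0.18, adjusted p = 0.00435). RPL27B was at 504, 557 and 569 CPM against 966 to 1242 CPM (-1.01 ± 0.24, adjusted p = 0.00535). Both were stable and had no overlap between groups. RPS2 and RPS3, which encode proteins of the small subunit, were lower by -0.77 ± 0.20 and -0.77 ± 0.21. Many of these genes have near-identical copies, so that only reads unique to one copy were counted.

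The ribosomal protein calls were fewer without single H3S31D libraries and with the ratio of multiply placed reads as a covariate. Without H3S31D S139 the counts were 0 for the small and 2 for the large subunit, and without H3S31D S140 they were 1 and 4. With the covariate they were 0 and 2, with medians of -0.235 and -0.260. Over WT 11 small subunit genes were lower, and 9 large subunit genes were lower and 1 higher, with medians of -0.504 and -0.466. Of 84 genes for ribosome assembly 9 (10.7%) were lower and 1 (1.19%) higher, against 7.49% and 7.01% of all genes, with a median of 0.047. With the covariate 2 were lower and the median was -0.302, and the count of lower genes was 0 without H3S31D S139, 1 without H3S31D S140, 2 without H3S31D S141, and 4 without H3K18A S128 or H3K37R S121. Among the lower ones, NOP1, the methyltransferase fibrillarin, had a log2 fold change of -1.19 ± 0.31, and TIF6, needed to build the large subunit, one of -1.43 ± 0.39. Of 27 genes of RNA polymerases I and III and their factors, 4 (14.8%) were lower and 1 (3.7%) higher. RPO31, the largest subunit of RNA polymerase III, was lower by -0.98 ± 0.21 and stable. CDC33, the cap-binding factor eIF4E, was also stable, at 31.6 ± 14.2 CPM in H3S31D and 87.7 ± 13.0 CPM in the reference (named, like RPO31, after the values were seen).

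**Figure D2:**
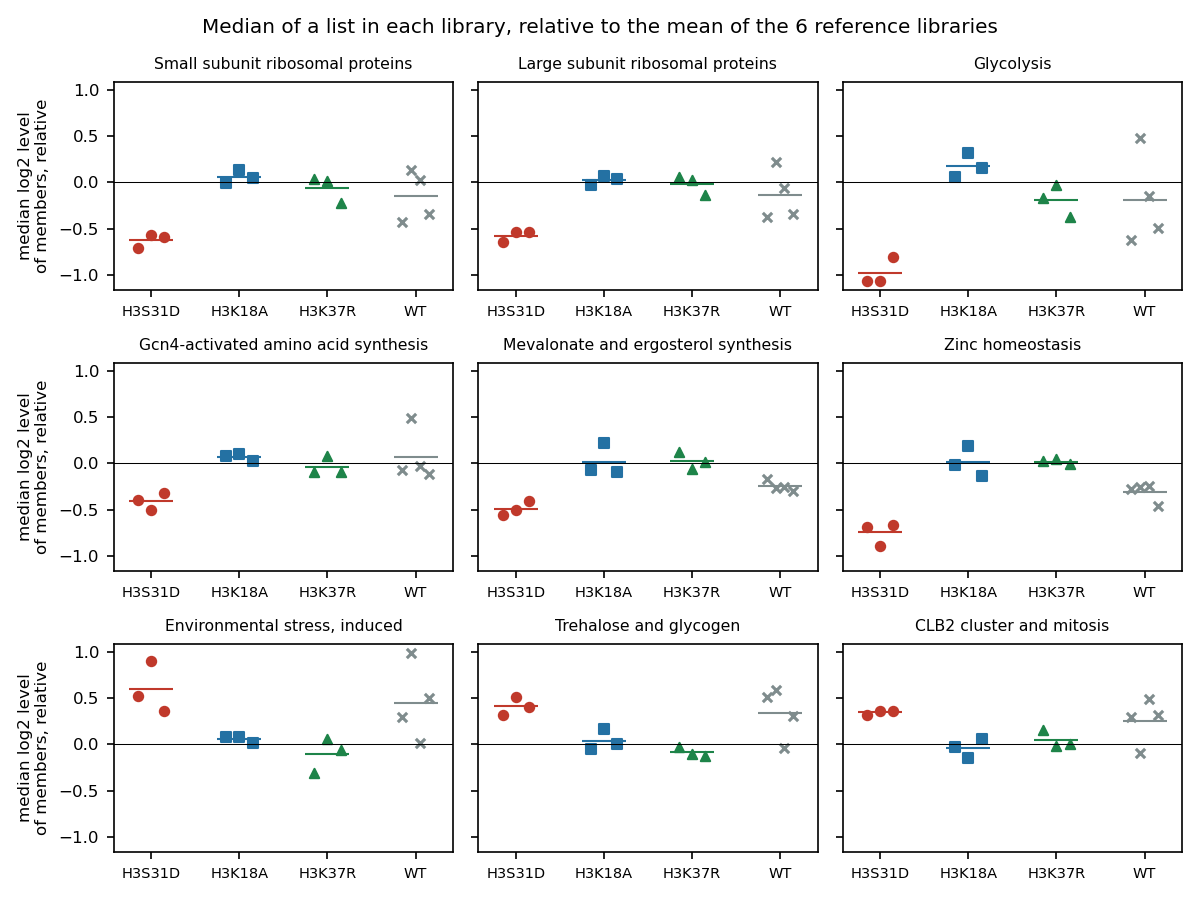
Median over the members of 9 gene lists in each library, on the log2 scale relative to the mean of the 6 reference libraries, with 1 point per library and a line at the mean of each genotype. The H3S31D points lie outside the range of the H3K18A and H3K37R points in all 9 lists, and the WT points spread from those of the reference to those of H3S31D in several of them. The 9 are a selection from the lists analysed. In the citric acid cycle list, not shown, the mean of the library medians was 0.114 in H3S31D, 0.197 in H3K18A and -0.143 in H3K37R.

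Amino acid synthesis was lower as well. HOM3, the aspartate kinase at the start of threonine and methionine synthesis, was at 0.742, 4.21 and 0.730 CPM in H3S31D, 6.04, 17.4 and 11.9 CPM in H3K18A and 14.5, 19.1 and 17.0 CPM in H3K37R. The H3S31D level was near the limit of detection (log2 fold change -2.76 ± 0.67, adjusted p = 0.00707). It was also lower than WT, by -3.32 (adjusted p = 0.00654). GCN4, the transcription factor that activates amino acid synthesis, was itself lower by -1.11 ± 0.30 against the reference and by -0.51 over WT, the latter not called (adjusted p = 0.302).

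Of 43 amino acid genes activated by Gcn4, 13 were lower and none higher (median -0.440), and over WT 13 were lower as well (median -0.544). By pathway, 4 of 9 arginine genes were lower, 6 of 12 genes of leucine, isoleucine and valine synthesis, and 4 of 10 lysine genes, and none of these was higher. Without H3S31D S139 these 3 counts were 1, 0 and 0, without H3S31D S140 they were 1, 0 and 1, and with the covariate 1, 0 and 0. Without H3S31D S141 they were 4, 3 and 1, and over WT 4, 2 and 2. The arginine count was also 1 without H3K37R S122. ARG1, the argininosuccinate synthetase, was lower by -1.52 ± 0.47 and ARG3, the ornithine carbamoyltransferase, by -1.45 ± 0.45. ILV5, an enzyme shared by valine and isoleucine synthesis, was lower by -0.90 ± 0.28 and BAT1, the mitochondrial branched-chain transaminase, by -0.79 ± 0.21. LYS1, which makes lysine in the last step, was lower by -0.999 ± 0.32. The count of Gcn4 genes was 1 without H3S31D S139, 2 without H3S31D S140, 8 without H3K37R S122 and 1 with the covariate. Outside this list, SER3 and SER33, the paired enzymes that open serine synthesis, were lower by -1.02 ± 0.29 and -1.05 ± 0.28. Of 16 amino acid permeases 5 were lower and none higher, a count that was 1 without H3S31D S139, 1 without H3S31D S140, 3 without H3S31D S141, 0 with the covariate and 0 over WT. MUP3, a low-affinity methionine permease, was lower by -1.81 ± 0.49 but had a log2 fold change of -0.07 over WT.

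Among genes of purine and one-carbon metabolism, 4 of 18 were lower and none higher, a count that was 2 without H3S31D S139, 1 without H3S31D S140, 1 with the covariate and 0 over WT. IMD2, an IMP dehydrogenase that opens guanine nucleotide synthesis, was at 64.5, 57.1 and 82.5 CPM in H3S31D and 114.8 to 297 CPM in the reference (log2 fold change -1.57 ± 0.32, adjusted p = 0.00261) and was stable. Its relatives IMD3 and IMD4 were lower by -0.61 ± 0.16 and -0.67 ± 0.17, and ADE12, the adenylosuccinate synthase, by -0.93 ± 0.29. The IMD genes are close in sequence, so their reads may be divided between them.

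**Figure D3:**
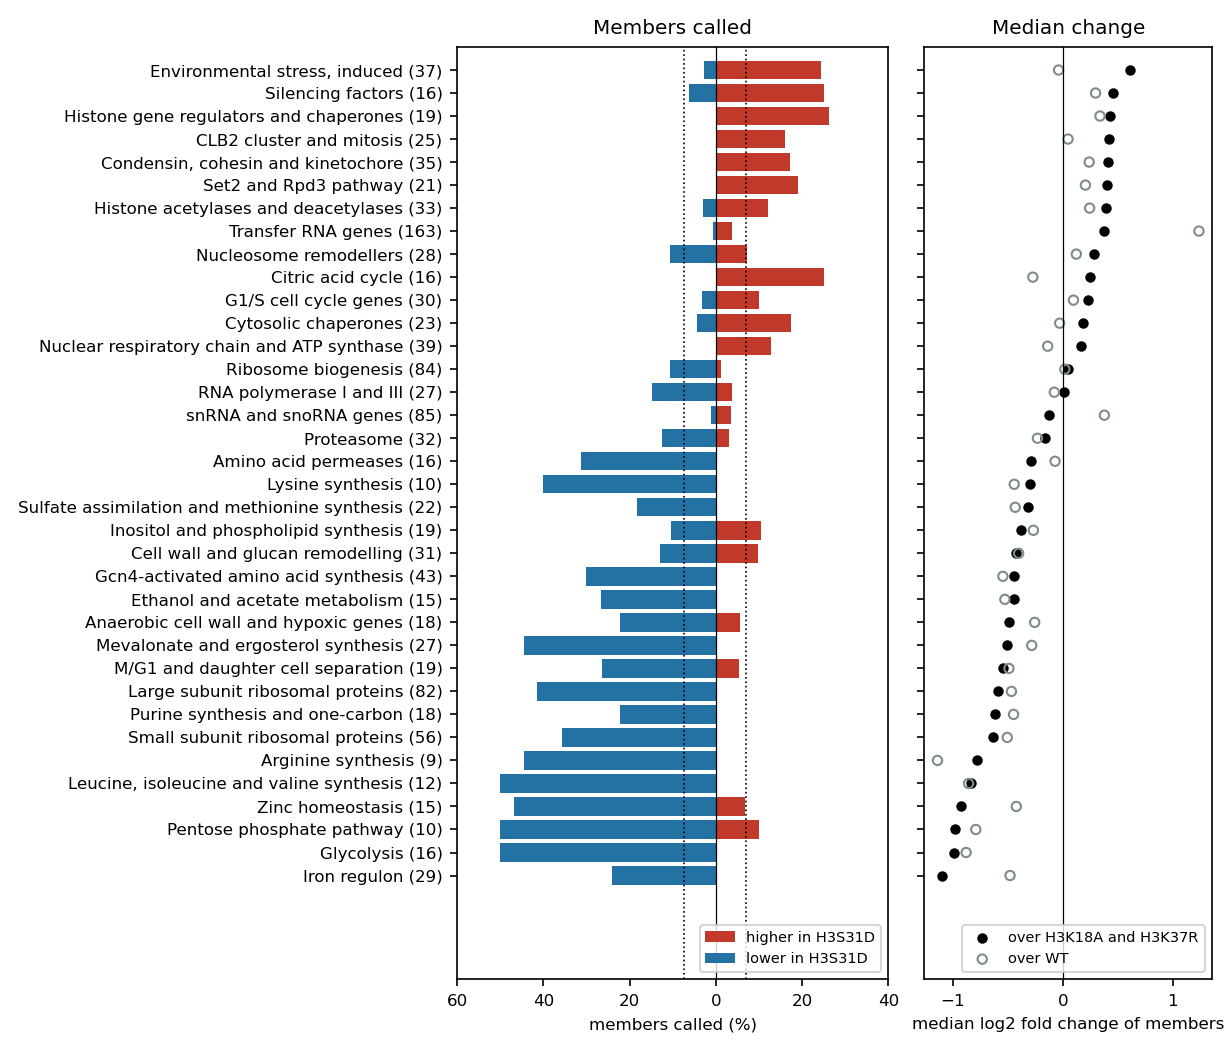
Gene lists with at least 4 called members, ordered by median change, with the number of tested members in brackets. The left panel gives the percentage of members called higher or lower in H3S31D, with dotted lines at the 7.01% and 7.49% of all genes; the right panel gives the median log2 fold change against H3K18A and H3K37R (filled) and over WT (open). Glycolysis, ribosomal proteins, amino acid synthesis and metal uptake are at the bottom and stress genes at the top, where the open point lies near 0.

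Some genes for taking up iron were lower in H3S31D than in the reference mutants. FIT1, a cell wall mannoprotein that retains iron bound to siderophores, had the largest decrease among the genes eligible to be named. It was at 3.71, 1.80 and 2.92 CPM in H3S31D, 38.9, 149.5 and 26.5 CPM in H3K18A and 86.8, 46.3 and 60.6 CPM in H3K37R (log2 fold change -4.59 ± 1.52, adjusted p = 0.0334). WT, at 9.86, 6.80, 2.53 and 4.52 CPM, was also below all 6 reference libraries, and H3S31D did not pass the test over WT (-1.08, adjusted p = 0.754). ARN2, a siderophore transporter, was at 22.2, 4.81 and 19.0 CPM in H3S31D and 34.4 to 142 CPM in the reference (-2.29 ± 0.76). FRE2, a reductase of ferric iron, was at 2.67 ± 0.808 CPM in H3S31D and 11.2 ± 3.83 CPM in the reference (-1.97 ± 0.68), and over WT its log2 fold change was 0.13. Of 29 genes of the iron regulon 7 were lower and none higher, and 27 had a negative log2 fold change (median -1.094). No iron gene was called over WT, where the median was -0.479. The count was 0 without any 1 of H3S31D S139, H3S31D S140, H3K18A S128 or H3K37R S121, and 1 with the covariate.

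Several zinc genes were lower. ZRT1 (YGL255W, chromosome VII, 20978 to 22108), the high-affinity zinc transporter of the cell surface, was at 35.6, 25.2 and 45.3 CPM in H3S31D, 149.6, 191 and 133.7 CPM in H3K18A and 281, 146 and 104.7 CPM in H3K37R (log2 fold change -2.25 ± 0.53, adjusted p = 0.00532). ZRC1, which moves zinc into the vacuole, was at 66, 58.3 and 70.8 CPM against 115.4 to 159.9 CPM in the reference (-1.14 ± 0.26, adjusted p = 0.00491). ZRT3, which releases zinc from the vacuole, was at 98.6, 92.6 and 108.8 CPM against 138.9 to 216 CPM (-0.80 ± 0.18, adjusted p = 0.00472). No group overlapped in these genes, and ZRC1 and ZRT3 were stable. Of 15 zinc genes 7 were lower and 1, ZRG8, was higher, by 1.19 ± 0.39; ZRG8 is named after its values were seen. The count of lower genes was 2 without H3S31D S140, 4 without H3S31D S139 and 1 with the covariate, and none of the list was called over WT (median -0.422).

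Sterol synthesis was lower, with 12 of 27 genes of the mevalonate and ergosterol pathways called lower and none higher (median -0.504). The median of the list was -0.55, -0.51 and -0.41 in the 3 H3S31D libraries, -0.08, 0.22 and -0.10 in H3K18A and 0.12, -0.06 and 0.01 in H3K37R. ERG5, the sterol desaturase of cytochrome P450 type, was at 17.8, 21.04 and 21.9 CPM in H3S31D and 39.4 to 89.6 CPM in the reference (log2 fold change -1.69 ± 0.39, adjusted p = 0.00519). HMG1, the HMG-CoA reductase that sets the pace of the pathway, was at 67.5, 66.7 and 70.8 CPM against 97.95 to 148 CPM (-0.79 ± 0.18, adjusted p = 0.00473). Both were stable. ERG28, a scaffold of sterol demethylation, and ERG3, the C-5 sterol desaturase, were lower by -1.31 ± 0.32 and -1.01 ± 0.25. The count was 3 without H3S31D S139, 3 without H3S31D S140, 6 without H3K18A S128, 7 without H3S31D S141 and 1 with the covariate. Over WT 4 of the 27 were called, all lower (median -0.282). Genes of low oxygen gave 4 lower and 1 higher of 18: ANB1, the hypoxic form of the translation factor eIF5A, was lower by -2.14 ± 0.64 and AAC3, the hypoxic ADP/ATP carrier, by -1.59 ± 0.37. The count of lower genes was 1 without H3S31D S139, 0 without H3S31D S140, 2 without H3S31D S141, 0 with the covariate and 1 over WT.

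Each core histone has a pair of genes, and reads placed at more than one site were not counted for histone genes either. HHF1, a gene for histone H4, was at 943, 1274 and 999 CPM in H3S31D, 2455, 3063 and 2825 CPM in H3K18A and 2456, 2786 and 1866 CPM in H3K37R. It was lower, with no overlap (log2 fold change -1.26 ± 0.38, adjusted p = 0.0218). HHT1 and HHT2, the genes for histone H3, had log2 fold changes of -0.47 ± 0.33 and -0.71 ± 0.37 and were not called (adjusted p = 0.325 and 0.175). HHT1 was at 128.3, 203 and 211 CPM in H3S31D and 211 to 288 CPM in the reference. HHF2 (-1.06), HTA1 (-0.80), HTA2 (-0.83), HTB1 (-1.06) and HTB2 (-0.96) had negative log2 fold changes that did not pass the test. CSE4, the H3 variant of centromeres, was higher by 0.53 ± 0.19, with overlapping groups, and HTZ1, the H2A variant, had a value of -0.13 ± 0.19 (adjusted p = 0.682). The CSE4 call was lost in 7 of the 9 fits without 1 library. With the covariate none of the 11 histone genes was called. Which histone gene copies carry the mutation in these strains is not given in the sources used here.

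Several genes for proteins that act on histones were higher, in lists whose shares are to be read against the 7.01% of all genes that were higher. Of 19 histone chaperones and histone gene regulators 5 (26.3%) were higher and none lower (median 0.426). RTT106, a chaperone that deposits histone H3 and H4, was at 185, 168 and 136.5 CPM in H3S31D and 82.99 to 112.3 CPM in the reference (log2 fold change 0.69 ± 0.16, adjusted p = 0.00633). SPT16, a subunit of the FACT complex, and RLF2, a subunit of chromatin assembly factor CAF-1, were higher by 0.62 ± 0.17 and 0.92 ± 0.28. In the Set2 and Rpd3 pathway, which removes acetyl groups behind RNA polymerase II, 4 of 21 genes (19%) were higher and none lower, among them EAF3 (0.49 ± 0.13), which reads methylated H3, and SIN3 (0.44 ± 0.16), a scaffold of the deacetylase, whose call was lost in 7 of the 9 fits without 1 library. Of 33 histone acetylases, deacetylases and partners 4 (12.1%) were higher and 1 lower: SAS3, a catalytic subunit of an H3 acetylase, was at 326, 328 and 329.9 CPM against 126.8 to 196 CPM (0.96 ± 0.31), and HAT1, an H4 acetylase, was lower by -0.78 ± 0.25.

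Of 16 silencing factors 4 (25%) were higher and 1 lower: SIR1, which helps to start silencing at the mating-type loci, was higher by 0.90 ± 0.26 and RAP1, which binds telomeres and ribosomal protein promoters, was lower by -0.58 ± 0.20. The RAP1 call was lost in 8 of the 9 fits without 1 library. No gene of COMPASS, the H3 methylase complex, or of H2B ubiquitination was called among 20 tested. Of 13 kinases and phosphatases known or tested for H3, TEL1, a kinase of the DNA damage response, and HSL1, a kinase of the morphogenesis checkpoint, were higher by 0.67 ± 0.17 and 0.60 ± 0.16. With the covariate, none of the chaperone, Set2 and Rpd3, acetylase or silencing genes was called, and the 4 medians were 0.162, 0.017, 0.118 and 0.117. Without H3S31D S139 the counts of higher genes in these lists were 1, 0, 0 and 0, without H3S31D S140 they were 1, 1, 0 and 0, and without H3K18A S128 they were 3, 1, 0 and 1. Over WT 1, 3, 1 and 2 genes of these lists were higher.

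A gene of the nucleosome remodeller SWI/SNF was lower, at a level near the limit of detection in H3S31D. SNF11 (YDR073W, chromosome IV, 592439 to 592948), a small subunit of the complex, was at 1.48, 4.81 and 2.92 CPM in H3S31D, 9.39, 17.4 and 11.9 CPM in H3K18A and 13.9, 17.7 and 14.9 CPM in H3K37R. It was lower by -2.13 ± 0.40 (adjusted p = 0.0008269) and by -1.65 over WT (adjusted p = 0.0214), was stable, and was called with the covariate. SNF2, the ATPase of the same complex, was at 368, 364 and 331 CPM in H3S31D and 194 to 232 CPM in the reference, and was higher by 0.70 ± 0.19 (adjusted p = 0.0122). Of 28 remodeller genes 2 (7.14%) were higher and 3 (10.7%) lower, against 7.01% and 7.49% of all genes.

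Cell cycle genes were called in both directions, and differences between stages were not tested. SWI5, the transcription factor that acts as cells leave mitosis, was at 60.8, 57.7 and 49.6 CPM in H3S31D, 17.4, 11.1 and 25.1 CPM in H3K18A and 31.7, 17.7 and 24.99 CPM in H3K37R. It was higher by 1.41 ± 0.24 (adjusted p = 0.0002973), and the call was stable and held with the covariate. PDS1, the securin that holds back chromatid separation, was higher by 0.69 ± 0.19. Of 25 genes of the CLB2 cluster and mitosis 4 (16%) were higher and none lower, against 7.01% of all genes higher. Of 35 genes of condensin, cohesin and the kinetochore 6 (17.1%) were higher and none lower. Among these 6 were DAM1 (0.90 ± 0.26) and NDC80 (0.90 ± 0.27), which link kinetochores to microtubules. FAR1, which arrests the cycle in response to pheromone, was at 453, 441 and 364 CPM against 139.6 to 229 CPM (1.12 ± 0.24, adjusted p = 0.00270) and was stable.

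Of 30 genes of the G1/S transition 3 (10%) were higher and 1 (3.33%) lower (median 0.232), against 7.01% and 7.49% of all genes. Of 19 genes that act as daughter cells separate after division 5 were lower and 1 higher (median -0.544). EGT2 and SUN4, cell wall proteins of septum breakdown, were lower by -1.25 ± 0.38 and -1.46 ± 0.44, and AMN1, which resets the cycle after mitosis, by -1.04 ± 0.28. DSE1, another daughter-specific gene, was higher by 0.73 ± 0.21, with overlapping groups. In bulk libraries a smaller share of cells at a stage and less RNA per cell cannot be told apart. Without H3S31D S139 the counts were 1 higher gene in the CLB2 list, 0 in the kinetochore list and 0 lower genes in the daughter list, without H3S31D S140 they were 1, 0 and 1, and with the covariate they were 1, 0 and 0. Over WT no gene of the CLB2 or kinetochore list was called (medians 0.048 and 0.240), and 3 genes of the daughter list were lower. MATa genes were near the floor in all 9 libraries, with STE2, the receptor of alpha factor, at 4.45, 1.80 and 3.65 CPM in H3S31D and 2.04 to 7.79 CPM in the reference. MATalpha genes were expressed, with STE3, the receptor of a-factor, at 70.5, 54.7 and 57.7 CPM in H3S31D and 44.2 to 59.5 CPM in the reference, and none of 5 MATa and 4 MATalpha genes was called.

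Non-coding genes were few among the calls. snR18, a small nucleolar RNA that guides methylation of ribosomal RNA, was at 426, 321 and 444 CPM in H3S31D and 137.3 ± 27.2 CPM (SD, n = 6) in the reference (log2 fold change 1.53 ± 0.39, adjusted p = 0.00921) and was stable. Of 163 transfer RNA genes 6 (3.68%, against 7.01% of all genes) were higher and 1 lower (median 0.378), among them tA(AGC)K1, an alanine tRNA gene, higher by 1.81 ± 0.61, a call lost in 7 of the 9 fits without 1 library. The count of higher genes was 0 without H3S31D S139, 1 without H3S31D S140, 2 with DESeq2 and 0 with the covariate. Over WT the median of the tRNA genes was 1.237 with 24 called, all higher. These RNAs are not normally polyadenylated, and it was not shown that their counts from a 3′-end method follow their RNA level.

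The longest genes were higher more often than other groups by length, without a steady rise from short to long. Among 5367 genes with a length in the annotation, the longest 10% (537 genes of at least 2880 bases) held 84 higher genes (15.6%) and 29 lower ones (5.4%), with a median log2 fold change of 0.228. Genes of 882 to 1050 bases, a group of 536, held 17 higher (3.17%) and 59 lower genes (11%), with a median of -0.133. The shortest 10% held 48 higher (8.96%) and 29 lower genes (5.41%), with a median of -0.091. Over WT the median of the longest 10% was 0.159, and between H3K18A and H3K37R it was -0.087. The long genes include several of those named above, such as SNF2, TEL1 and HSL1. Spearman's rho between length and log2 fold change was 0.135 across genes, which are not independent replicates. Of the 583 genes with the highest mean levels, 20.1% were lower and 8.23% higher.

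**Figure D4:**
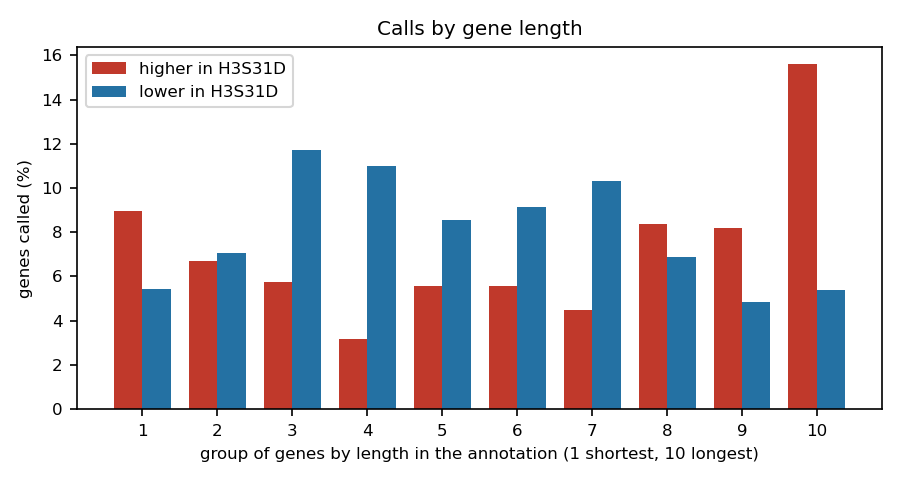
Percentage of genes called higher and lower in H3S31D in 10 groups of near-equal size by annotated length, from shortest to longest. The longest group has 15.6% higher and 5.4% lower genes, while groups 2 to 7 have more lower than higher genes. The shortest group has 8.96% higher and 5.41% lower genes.

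The 4 genes that also differed from the mean of all 7 neighbouring mutants were ANK1, YJL077W-A, MNS1 and NMT1, and these are named because the count was small. NMT1 (YLR195C, chromosome XII, 541937 to 543304), the essential enzyme that attaches myristate to proteins, was at 306, 273 and 292 CPM in H3S31D, 191, 182 and 182 CPM in H3K18A, 145, 112.9 and 148 CPM in H3K37R and 141.3, 178, 197 and 203 CPM in WT. It was above all 10 other libraries (log2 fold change 0.88 ± 0.16, adjusted p = 0.0006847; 0.69 over WT, adjusted p = 0.0208). ANK1, a protein with ankyrin repeats, was at 120.9, 142 and 113.9 CPM against 46.2 to 73.8 CPM in the reference (1.06 ± 0.18, adjusted p = 0.0002973). MNS1, the mannosidase that trims glycans in the endoplasmic reticulum, was at 100.1, 103.4 and 91.2 CPM against 49.5 to 69.8 CPM (0.73 ± 0.18, adjusted p = 0.00775). YJL077W-A, an uncharacterised gene, was at 94.1 ± 19.5 CPM (SD, n = 3) against 36.6 to 53.6 CPM (1.15 ± 0.21, adjusted p = 0.0006847). All 4 were also called over WT, and all but MNS1 were stable.

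Several neighbouring mutants had list medians in the direction of H3S31D. On the scale relative to the 6 reference libraries, the median of the stress list was 0.593 in H3S31D, 1.244 in H3T3A, 1.563 in H3T3D, 0.90 in H3K37Q and 0.320 in H3R40K. The glycolysis median was -0.975 in H3S31D, -0.775 in H4R55A, -0.732 in H3R40K and -0.670 in H3T3A. For small subunit ribosomal proteins it was -0.620 in H3S31D, -0.562 in H3T3D and -0.449 in H4R55A, and for zinc genes -0.744 in H3S31D and -0.655 in H3R40K. The trehalose and glycogen median was 0.411 in H3S31D, 1.167 in H3K37Q, 1.129 in H3T3D, 1.094 in H3T3A, 0.313 in H3R40K and 0.118 in H4R55A. For iron genes it was -0.905 in H3S31D, -0.907 in H3T3A, -0.852 in H3R40K, -0.586 in H4R55A, -0.58 in H3T3D and -0.401 in H3K37Q. The sterol median was -0.489 in H3S31D, -0.57 in H3T3A and -0.508 in H3T3D. Gcn4 genes had -0.404 in H3S31D and -0.438 in H3R40K. Purine genes had -0.6 in H3S31D, -0.805 in H3R40K, -0.8 in H3T3D and -0.792 in H3T3A. The CLB2 median was 0.344 in H3S31D, 0.534 in H3T3A, 0.498 in H3R40K and 0.464 in H3T3D. Core histone genes had -0.668 in H3S31D and -0.99 in H4R55A. From the sterol to the histone list, mutants not named had medians of smaller size. H3T3A and H3T3D had 2 libraries each. No member of any of these lists was called between H3S31D and the mean of the 7 neighbouring mutants.

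Each reference mutant gave fewer calls on its own. Against H3K18A alone 639 genes (11%) were called, 272 (4.67%) higher and 367 (6.3%) lower, and against H3K37R alone 268 (4.6%), 2.25% higher and 2.35% lower. The first count fell to between 8 (without H3S31D S140) and 243 (without H3K18A S129) when any 1 of its 6 libraries was left out, and the second to between 24 (without H3S31D S139) and 88 (without H3K37R S123). Of the 408 higher genes 70 were called against each mutant and 28.9% against neither, and of the 436 lower genes 91 and 20.2%. GSY2 was higher by 2.01 against H3K18A and 2.09 against H3K37R. HXT3 was lower by -1.74 and -1.59. The reference mutants differed from each other in 1 gene of 5822 (0.0172%), with 298 at an unadjusted p under 0.05. That gene was CSM3, which stabilises paused replication forks, at 40.9, 61.1 and 54.9 CPM in H3K18A, 13.3, 19.1 and 22.9 CPM in H3K37R and 49.7, 39.1 and 35.04 CPM in H3S31D; its call was lost without H3K18A S128, without H3K37R S121, with a minimum log2 fold change of 0.5 and in the fit to the neighbouring sample numbers, where a different gene was called.

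**Figure D5:**
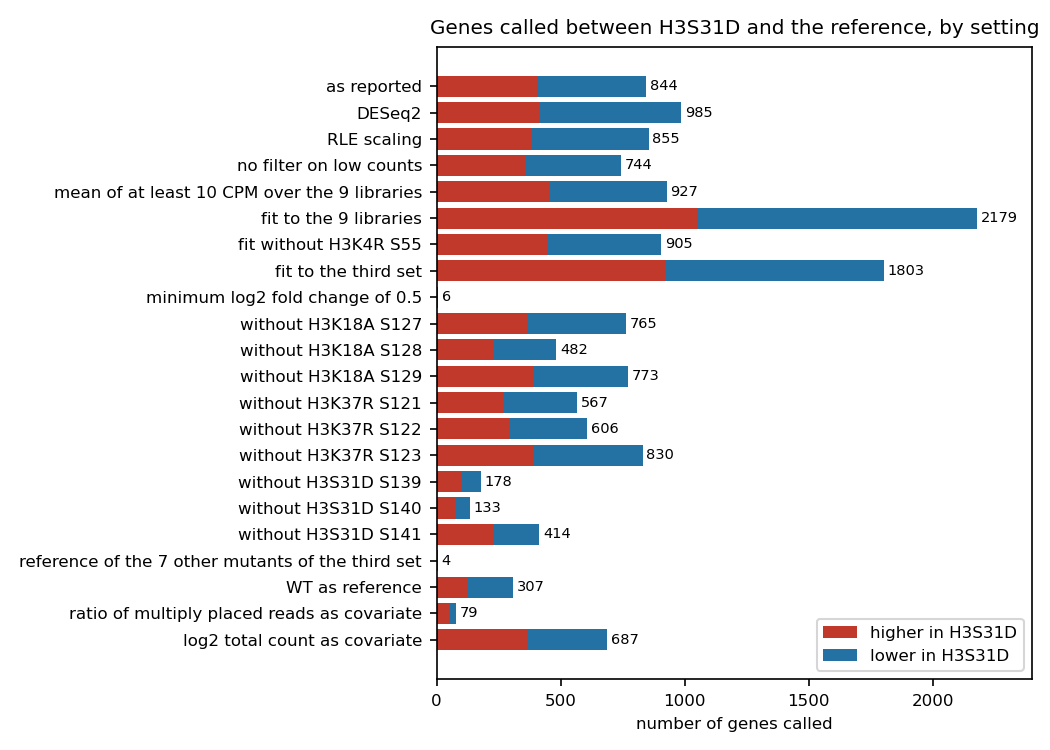
Number of genes called between H3S31D and the reference as reported and under each alternative, divided into higher (red) and lower (blue). The count runs from 4 with all 7 neighbouring mutants as reference to 2179 in a fit to the 9 libraries alone, and is smallest among the fits without 1 library when H3S31D S139 or S140 is left out.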

How the data were processed

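The authors deposited raw counts per gene for each library, which were used without change. The submitters' processing notes name sacCer3 as the genome build and list TopHat, featureCounts 1.5.3 and HTSeq, without the step each served, and the strand setting is not given in the sources used here. Overlapping and antisense genes may therefore share reads. The 5 HTSeq summary lines were left out of the totals. Of 7122 genes, 6076 (85.3%) matched RefSeq assembly R64, which gave symbols and positions. A sheet of log2 fold changes was not used here.

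A quasi-likelihood model of edgeR 4.0.16 (R 4.3.3) was fitted across all 90 libraries with TMM scaling, 1 coefficient for each genotype and the 5822 genes kept by filterByExpr, with 60 residual degrees of freedom and a common dispersion of 0.0543 (a spread of 23.3% between libraries). The 90 libraries include H3K4R S55, with only 24010 counts, and 905 genes were called in a fit without it. Tests were two-sided, with Benjamini-Hochberg adjustment over all tested genes. Standard errors were derived from the F statistic and are approximate. Between replicates, the variance of the counts was 2.68 to 9.14 times that of counting error (chi-square per degree of freedom), so each library counted once. With 3 libraries a group, precision is limited by the spread between libraries.

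The libraries compared, the reference and the gene lists were chosen with earlier results of these data known. Named genes were called, had all 3 H3S31D libraries on one side of all 6 reference libraries and at least 10 CPM in the higher group. The 14 largest in each direction were eligible, with up to 4 called members of a list by smallest p, and the histone and mating-type genes in any case; other names are marked, and 1 eligible gene is not reported here. Lists are described by counts and medians, with no set test. Alternatives were DESeq2 1.42.0, RLE scaling, other filters, other sets of libraries or references, a minimum log2 fold change of 0.5 and each library left out. The covariates, the log2 ratio of multiply placed reads to gene counts and the log2 total count, were added after the data were seen. The code was checked on simulated counts.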

Additional observations from a re-analysis of the deposited data

Results flagged for a closer look

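In 27 groups of 4 WT libraries (1 for each of the largest changes reported), 3 had a highest library far from the other 3, where chance would flag about 1 in 20. HOM3 was at 50.3 CPM in WT S46, and CIS1 at 11.73 CPM and FRE2 at 5.632 CPM, both in WT S133. WT S133 is the WT library with a sample number near those of H3S31D.

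The log2 fold change of CSM3 over H3K37R exceeded that over H3K18A by 1.503 (adjusted p = 0.00285, edgeR), since the reference mutants differ in this gene.

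Reads placed at more than one site averaged 6.704 ± 0.898 per gene count in H3S31D (SD, n = 3) and 4.03 ± 0.828 in the reference (SD, n = 6), outside the measurement used for the comparison. Their source in the genome was not analysed here.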

How the results depend on the processing

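The 844 calls were 14.5% of the genes tested. That share became 41.3% in a fit to the 9 libraries alone, 31.2% in a fit to the neighbouring sample numbers, 0.103% with a minimum log2 fold change of 0.5, 0.0687% with all 7 neighbouring mutants as reference, 5.27% with WT as reference and 1.36% with the ratio of multiply placed reads as a covariate, and 2.28% to 14.3% with 1 library left out. The share of higher genes among the calls was 48.3% as reported and 60.8% with that covariate. Other settings gave 687 (total count as covariate) to 985 (DESeq2) calls. Against H3K18A, 11% became 40.4%, 30%, 0.12%, 0.223% (ratio) and 6.66% (total count), and 0.137% to 4.17% with 1 library left out. Against H3K37R, 4.6% became 30.3%, 18.7%, 0 and 1.55% (ratio), and 0.412% to 1.51%. Between the reference mutants, 0.0172% (1 gene) became 0.833% in the fit to the 9 libraries and 0 with the minimum, and 0 to 0.0172%. The cause of these changes was not tested. Over WT, FRE2 (0.134, adjusted p = 0.947) and PDC1 (0.018, adjusted p = 0.964) changed sign; of the 153 named genes that were called, no other did under any alternative that tested it. No paired analysis was possible because the count columns carry no replicate numbers. Genes under about 10 CPM rest on few counts in H3S31D, and small differences were not detectable at this depth.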

Other observations

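Some stable genes belong to groups that the account above does not cover, and all were chosen after their values were seen. Among proteins of the mitochondrial surface, TOM70 and TOM71, paired receptors for imported proteins, were higher in H3S31D, at 429 ± 2.32 and 186 ± 3.46 CPM (SD, n = 3) against 248 ± 10.8 and 125.9 ± 12.3 CPM (SD, n = 6), with log2 fold changes of 0.79 ± 0.18 and 0.57 ± 0.14. In the proteasome, RPN1, a scaffold of the regulatory particle, was higher by 0.96 ± 0.22 while PRE4, a subunit of the catalytic core, was lower by -1.50 ± 0.31. Of 32 proteasome genes 1 (3.12%) was higher and 4 (12.5%) were lower, against 7.01% and 7.49% of all genes. TPM2, a minor tropomyosin, and MYO3, a myosin of endocytic actin, were higher by 1.40 ± 0.32 and 0.96 ± 0.23. CWP1, a mannoprotein of the cell wall, was at 505 ± 32.1 CPM in H3S31D and 228 ± 29.8 CPM in the reference. SGS1, a DNA helicase, and MSN5, a nuclear export receptor, were higher by 0.92 ± 0.21 and 0.85 ± 0.20. SNU13, a protein shared by the spliceosome and small nucleolar ribonucleoproteins, was lower by -1.09 ± 0.25. Of the stable genes in this paragraph, only PRE4 and CWP1 were also called with the ratio of multiply placed reads as a covariate. Over WT, TOM70, TOM71, PRE4 and SGS1 were called, and RPN1, TPM2, MYO3, MSN5, CWP1 and SNU13 were not.

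The genes of the mitochondrial genome held 2 higher (13.3%, against 7.01% of all genes) and no lower members among 15 tested, with a median log2 fold change of 0.475. These were SCEI, an intron-encoded endonuclease, at 48.2, 40.9 and 24.8 CPM in H3S31D and 6.40 to 19.7 CPM in the reference, and BI2, an intron-encoded maturase, at 28.9, 33.1 and 30.7 and 6.67 to 26.1 CPM. With the ratio of multiply placed reads as a covariate neither gene was called, and the median was 0.056. Chromosome medians lay between -0.227 (chromosome III) and 0.068 (chromosome VI).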
